A study of Mus musculus with 6 samples.

Results

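NF-κB is the transcription factor family that carries most inflammatory signals to the genome. The data describe 10 of its genes in the mouse retina: the subunits Rela, Nfkb1, Nfkb2 and Relb, the inhibitors and feedback genes Nfkbia, Nfkbie, Bcl3, Tnfaip3 and Birc3, and the kinase Ikbke. The members were the rows of a count table of 23420 genes whose symbol is on that list, and all 10 were found. Whole retinas were sequenced in 6 libraries, 2 for each of 3 groups: untreated controls, retinas 4 days after 1 h of light at 10000 lux, and retinas after the same light with minocycline injected into the peritoneum at 45 mg/kg a day for 4 days. Minocycline is a tetracycline antibiotic that dampens microglia, the resident macrophages of the retina. The sample labels give the strain as CD1, whereas the methods of the study describe adult BALB/cJ mice of both sexes, a brighter exposure and a different injection schedule. Vehicle injections are not mentioned for these libraries. The 2 minocycline libraries share a column header without distinct replicate numbers, and A and B tell them apart here, while the others are control 1, control 2, light 1 and light 2.

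NF-κB subunits wait in the cytoplasm, bound by inhibitors of the IκB family, until a receptor for tumour necrosis factor, interleukin 1 or a microbial product sets off a kinase that has the inhibitor destroyed. In the canonical arm the freed dimer is mostly that of Rela with the processed product of Nfkb1. In the non-canonical arm, which the lymphotoxin and RANK receptors use, it is Relb with the processed product of Nfkb2. Several of the genes that NF-κB switches on turn the pathway down again, among them the inhibitors Nfkbia and Nfkbie and the ubiquitin-editing enzyme Tnfaip3. In the retina the pathway is known from activated microglia and Müller glia.

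Feedback genes commonly carry NF-κB motifs near their starts, so the promoters of 3 members that changed after light, and of the main inhibitor, which did not pass the test, are printed here. Each window runs from 250 bases before to 50 bases after a RefSeq start (GRCm38.p6, the patch release of mm10). It is written 5′ to 3′ on the strand of the gene. Every match on either strand to the κB consensus GGGRNWYYCC, the NF-κB binding motif, is in capitals. In the consensus R is A or G, W is A or T, Y is C or T, and N is any base. Bcl3 lies on the minus strand, with its window at chr7:19822706-19823005. For Nfkb2, on the plus strand, the window of the most upstream start is shown, chr19:46304487-46304786. Its further windows, chr19:46305445-46305744 and chr19:46305680-46305979, held 2 and 1 κB matches. They overlap, and the match of the latter lies in both. Tnfaip3 is on the minus strand, at chr10:19015361-19015660, the upstream one of 2 windows, the other holding no κB match. Nfkbia is also on the minus strand, at chr12:55492598-55492897.
Bcl3: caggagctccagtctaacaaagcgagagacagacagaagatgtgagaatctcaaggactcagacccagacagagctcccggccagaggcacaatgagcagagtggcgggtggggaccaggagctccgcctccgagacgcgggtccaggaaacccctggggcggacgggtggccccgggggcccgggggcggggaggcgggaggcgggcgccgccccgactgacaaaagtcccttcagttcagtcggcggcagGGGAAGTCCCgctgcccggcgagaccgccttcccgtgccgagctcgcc
Nfkb2: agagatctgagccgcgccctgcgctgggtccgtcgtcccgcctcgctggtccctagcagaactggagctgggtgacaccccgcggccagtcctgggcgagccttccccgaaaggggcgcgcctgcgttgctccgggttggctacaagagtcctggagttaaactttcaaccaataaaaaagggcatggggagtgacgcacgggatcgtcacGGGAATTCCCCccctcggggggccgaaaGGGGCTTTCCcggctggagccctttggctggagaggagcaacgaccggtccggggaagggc
Tnfaip3: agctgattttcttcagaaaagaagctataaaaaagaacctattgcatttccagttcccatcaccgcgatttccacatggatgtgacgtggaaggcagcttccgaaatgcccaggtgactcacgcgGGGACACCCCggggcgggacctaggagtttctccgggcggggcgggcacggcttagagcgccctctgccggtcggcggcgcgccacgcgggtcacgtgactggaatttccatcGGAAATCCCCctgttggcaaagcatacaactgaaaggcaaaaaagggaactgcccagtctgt
Nfkbia: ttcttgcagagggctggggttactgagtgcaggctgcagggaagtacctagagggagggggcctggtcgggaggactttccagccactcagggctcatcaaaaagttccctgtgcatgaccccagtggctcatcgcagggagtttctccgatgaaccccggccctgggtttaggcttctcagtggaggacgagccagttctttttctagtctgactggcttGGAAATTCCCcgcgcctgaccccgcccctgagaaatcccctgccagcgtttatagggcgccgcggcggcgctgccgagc
The Bcl3 match began 2 bases downstream of the start. The Nfkb2 window held 3 matches, of which those at -39 and -38 overlap and the other lay at -11. Tnfaip3 had matches at -125 and -12, and Nfkbia had its match at -29.

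A window was found for 8 of the 10 members, Nfkb1 and Relb being without one. Of these 8, 5 held a κB match on either strand, Nfkbie being the other beside the 4 printed. Among all 27025 genes with a window the share was 5.14%. The AP-1 motif TGACTCA, searched on both strands, was in the windows of 2 members, Tnfaip3 and Nfkbie, and in those of 5.95% of all genes. Rela, Ikbke and Birc3 held no κB match in these windows. The matches are a description of the letters and say nothing of binding in these retinas.

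Total counts ranged from 15205930 in control 1 to 22856922 in minocycline A, so 3 counts, about the most that a gene with 0 counts could have by chance, corresponded to between 0.131 and 0.213 CPM (counts relative to the library total, after TMM scaling). That range allows for counting error and nothing else, because reads without molecular identifiers do not stand for separate molecules. The libraries are biological replicates in the words of the study, but which animals they came from is not given in the sources used here, so p-values measure the spread between libraries. The tissue label fitted its markers, with 6 rod genes summing to between 36067 and 87158 CPM. Summed over 10 genes, microglia and macrophage markers stood at 51.0 and 54.7 CPM in controls, 299 in light 1, 920 in light 2, 84.6 in minocycline A and 49.3 in minocycline B. The light libraries therefore differed 3.08-fold in these markers. Corneal and surface epithelium markers reached 158 and 251 CPM in the minocycline libraries, against 4.79 to 17.7 CPM in the others. Pigment cell and pigment epithelium markers were also higher there, at 281 and 1119 CPM against 68.9 to 213 CPM. In whole tissue, fewer cells of a type and less RNA per cell cannot be told apart.

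Per kilobase of exon, the level of the members in control retinas spanned a wide range. Tnfaip3 led with 97.5 ± 24.3 CPM per kb (SD, n = 2), followed by Nfkbia with 17.4 ± 2.72, Rela with 12.7 ± 3.03 and Nfkb1 with 3.84 ± 0.848 CPM per kb. Nfkbie stood at 1.36 ± 0.484, Relb at 0.624 ± 0.200 and Nfkb2 at 0.402 ± 0.0211 CPM per kb. At the low end Bcl3 with 0.230 ± 0.0556, Ikbke with 0.128 ± 0.120 and Birc3 with 0.117 ± 0.0244 CPM per kb had libraries that overlapped with the neighbour in the order, whereas the libraries of the other neighbours did not overlap. After light the same 4 genes led, with Tnfaip3 at 41.3 ± 10.5, Nfkbia at 17.9 ± 2.41, Rela at 13.4 ± 0.825 and Nfkb1 at 6.59 ± 0.621 CPM per kb. Bcl3 then came next at 2.84 ± 0.134 CPM per kb, overlapping with Nfkbie, as Nfkbie did with Relb and Relb with Nfkb2. With minocycline, Bcl3 was again below Nfkb2, at 0.402 ± 0.164 CPM per kb against 0.746 ± 0.0634.

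The comparison of light with control asked which genes had changed in the degenerating retina. After light, 6 members rose and 1 fell (edgeR quasi-likelihood test, adjusted p under 0.05). Bcl3, Ikbke, Birc3, Nfkb2, Relb and Nfkb1 were higher, in order of log2 fold change, and Tnfaip3 was lower. Rela, Nfkbia and Nfkbie did not pass. Of all 14349 genes tested, 7.52% rose and 3.8% fell by the same rule. With the log2 fold cutoff of 2 that the study used, 4 members rose, Nfkb2, Ikbke, Bcl3 and Birc3, where 2.89% of all genes did. For 7 members both light libraries were above both controls, against 30.6% of all genes, and for Tnfaip3 both were below, against 30.3%. The members' median log2 fold change was 1.41, and that of all genes was 0.0025.

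**Figure D1:**
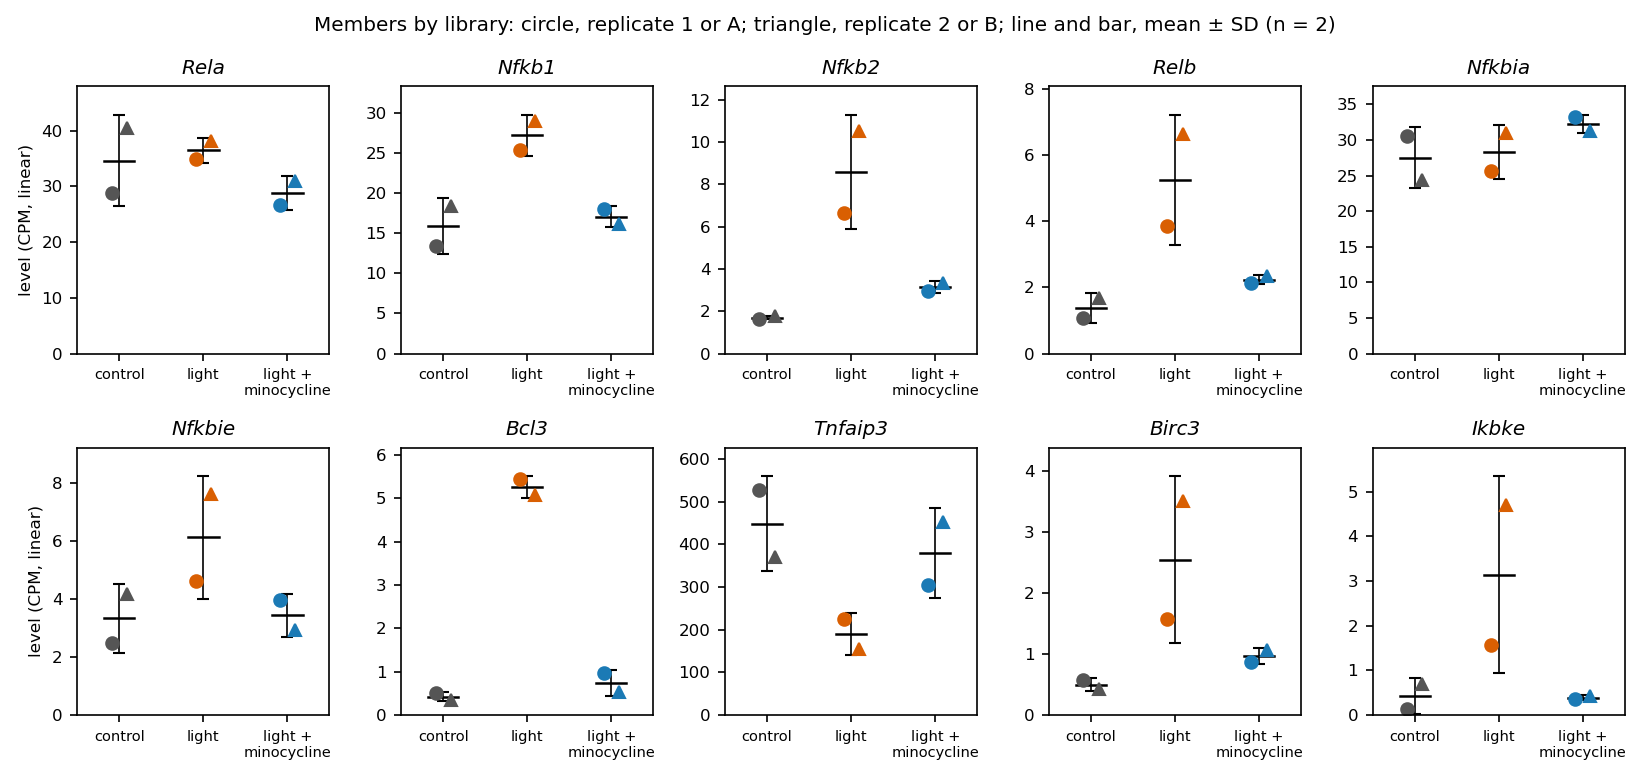
Level of each member in CPM (linear axis from 0) in control, light-exposed and light-exposed minocycline retinas, with a circle for replicate 1 or A, a triangle for replicate 2 or B, and a line with bar for mean ± SD (n = 2). Both light libraries were above both controls for 7 members and below both for Tnfaip3, at 224 and 156 CPM against 527 and 369.

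Of the 4 subunits, Nfkb2, Relb and Nfkb1 rose and Rela did not pass. Nfkb2, the precursor of the non-canonical subunit, had 23 and 25 counts in control 1 and control 2, 114 and 221 in light 1 and light 2, and 68 and 63 in minocycline A and B. The 3 groups did not overlap in CPM. Its level rose from 1.70 ± 0.0889 to 8.58 ± 2.71 CPM (SD, n = 2), a log2 fold change of 2.34 (SE 0.36, edgeR adjusted p = 0.00899). Relb, its dimer partner, had 15 and 24 counts in controls, 66 and 140 after light and 49 and 44 with minocycline, again 3 groups without overlap in CPM. It rose from 1.38 ± 0.441 to 5.25 ± 1.98 CPM, a log2 fold change of 1.93 (SE 0.43, edgeR adjusted p = 0.0219). Light 2 was the higher light library for both genes.

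The canonical pair had smaller estimates. Nfkb1 had 188 and 260 counts in controls, 434 and 610 after light and 412 and 305 with minocycline. Its light libraries, at 25.4 and 29.0 CPM, lay above all others, while the minocycline libraries overlapped with controls. The rise was 0.78 on the log2 scale (SE 0.21, edgeR adjusted p = 0.0367). Rela, which encodes the main transactivating subunit, had 405 and 574 counts in controls, 597 and 801 after light and 612 and 585 with minocycline. The control and light libraries of Rela overlapped, at 28.8 and 40.4 CPM against 34.9 and 38.1 CPM. Its log2 fold change was 0.08, with a 95% interval of -0.33 to 0.49 (edgeR adjusted p = 0.812), so a change as large as the estimates for Nfkb2 and Relb lay outside the interval.

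Among the inhibitors, Bcl3 had the largest estimate of any member. Bcl3 is an atypical IκB protein that works in the nucleus on dimers of the processed Nfkb1 and Nfkb2 products. Its counts were 7 and 5 in controls, 93 and 107 after light, and 22 and 10 with minocycline. Both light libraries were far above the other 4, and they were close to each other, at 5.43 and 5.08 CPM. From 0.425 ± 0.103 CPM in controls it rose 12.2-fold, a log2 fold change of 3.61 (SE 0.44, edgeR adjusted p = 0.00470).

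The classical inhibitors did not pass the test. Nfkbia, the IκB protein that holds canonical dimers in the cytoplasm and is remade after each round of activation, had 429 and 347 counts in controls, 438 and 652 after light, and 762 and 591 with minocycline. Its light libraries overlapped with controls, with a log2 fold change of 0.05 and a 95% interval of -0.36 to 0.46 (edgeR adjusted p = 0.891). Nfkbie, a second cytoplasmic inhibitor, had 35 and 59 counts in controls, 79 and 160 after light, and 91 and 55 with minocycline. Both of its light libraries were above both controls, but the log2 fold change of 0.89 had an SE of 0.38 and an edgeR adjusted p of 0.153.

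Birc3, a ubiquitin ligase that acts on receptor complexes and restrains the non-canonical arm, had 8 and 6 counts in controls, 27 and 74 after light, and 20 in each minocycline library. It rose from 0.496 ± 0.103 to 2.55 ± 1.37 CPM, a log2 fold change of 2.36 (SE 0.54, edgeR adjusted p = 0.0236). Ikbke, a kinase related to the IκB kinases that also acts in interferon signalling, had 2 and 10 counts in controls, 27 and 99 after light, and 8 in each minocycline library. Control 1 was thus below 3 counts, and the light libraries differed 2.98-fold from each other. The log2 fold change of Ikbke was 2.88 with the largest error of the members (SE 0.76, edgeR adjusted p = 0.0469). Birc2, the paralog of Birc3, named here after its values were seen, had 93.0 CPM in controls and 73.8 after light, with a log2 fold change of -0.33 that did not pass (edgeR adjusted p = 0.146).

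Tnfaip3 went the other way. It encodes the enzyme that takes activating ubiquitin chains off the receptor complexes, and it is commonly used as a sign of NF-κB activity. It had 7411 and 5241 counts in controls, 3830 and 3274 after light, and 6995 and 8552 with minocycline. Both light libraries, at 224 and 156 CPM, lay below the other 4. Against 448 ± 112 CPM in controls, the level after light was 190 ± 48.3 CPM, and it fell by 1.24 on the log2 scale (SE 0.23, edgeR adjusted p = 0.0157). Of the 10 members it was the only one to fall.

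**Figure D2:**
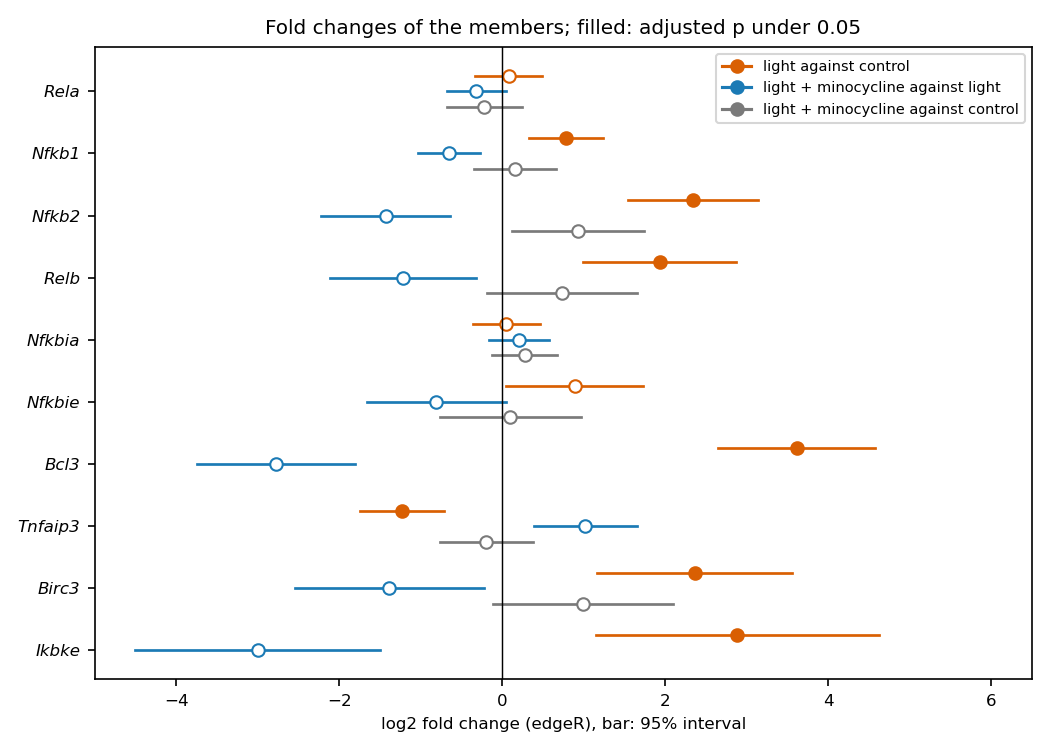
Log2 fold change of each member (horizontal axis) with its 95% interval for light against control, light with minocycline against light, and light with minocycline against control, filled where the adjusted p was under 0.05. Of the light against control values 7 are filled, and none of the minocycline values is; Bcl3 and Ikbke have no value for minocycline against control because they did not pass the filter on low counts there.

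These calls rest on duplicates. Without control 1 or without control 2, no member passed in edgeR, the 7 that had passed having adjusted p of 0.0561 to 0.176, and 4 and 20 genes of the whole table rose. Without control 1 no gene passed as lower in edgeR, with 2042 lower at an unadjusted p under 0.05, and without control 2 there were 37. Without light 2, only Nfkb2, Bcl3 and Tnfaip3 passed, where 3.05% of all genes were higher and 0.372% lower. Without light 1, Nfkbie passed as well, with an edgeR adjusted p of 0.0405, where 11.4% of all genes were higher and 3.13% lower. DESeq2 gave the same 6 higher members and 1 lower, with 8.01% of all genes higher and 5.34% lower. A minimum of 10 counts in every library left 7 members tested and 3 higher, beside 6.77% of all genes.

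Markers of other cells moved with these results. Of 6 rod markers 1 passed as lower after light, with a median log2 fold change of -0.86. Their sum was 87158 and 68278 CPM in controls, 51105 and 36067 after light, and 74716 and 80378 CPM with minocycline. Per 1000 rod marker counts, Tnfaip3 had 6.05 and 5.41 counts in controls, 4.38 and 4.31 after light, and 4.08 and 5.64 with minocycline. On that scale the light libraries were still below both controls, by less than in CPM, and minocycline A was the lowest of all. The part of the rods in the fall of Tnfaip3 was not tested.

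**Figure D3:**
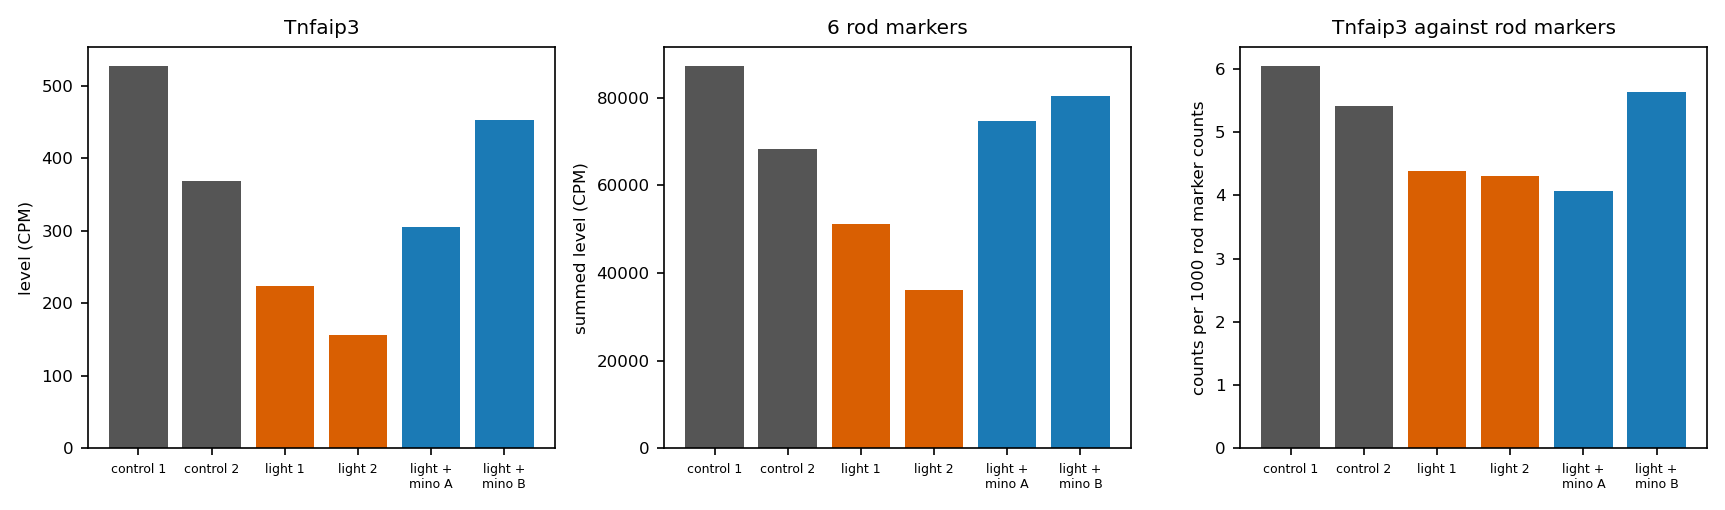
Tnfaip3 level in CPM (left), summed level of 6 rod markers in CPM (middle) and Tnfaip3 counts per 1000 rod marker counts (right), with 1 bar from 0 for each of the 6 libraries. The light libraries were the lowest in the first 2 panels, and at 4.38 and 4.31 in the last they were below both controls but above minocycline A at 4.08.

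The microglia and macrophage markers rose with the members, to 5.66 and 17.4 times the control mean in light 1 and light 2. Of the 10 genes 5 passed as higher after light, with a median log2 fold change of 3.57, and none was at 0 in a whole group. The members followed the spread between the light libraries to different degrees. Light 2 was above light 1 by 2.98-fold for Ikbke, 2.23-fold for Birc3, 1.72-fold for Relb, 1.65-fold for Nfkbie, 1.58-fold for Nfkb2, 1.21-fold for Nfkbia, 1.14-fold for Nfkb1 and 1.09-fold for Rela, against 3.08-fold for the markers. Tnfaip3 was lower in light 2, at 0.695 times light 1, and Bcl3 slightly lower, at 12.8 and 12 times the control mean in light 1 and light 2. For each 1000 microglia marker counts there were 2.79 and 12.9 Ikbke counts in controls, 5.27 and 5.11 after light, and 4.12 and 8.60 with minocycline. The same ratio for Bcl3 was 9.76 and 6.44 in controls, 18.2 and 5.52 after light, and 11.3 and 10.8 with minocycline. On that scale the light libraries of Ikbke lay between its controls, and those of Bcl3 lay above and below both controls. Those of all other members, also of Rela and Nfkbia, which did not pass, lay below both controls. A gene that rises by less than the markers, or not at all, falls on that scale. The part of microglia in the rise of the members was not tested. Müller glia and astrocyte markers rose in part after light, but in their sum the minocycline libraries overlapped with the light libraries. Of 6 such genes 3 rose after light, with a median log2 fold change of 1.11, and their sum went from 2263 and 1531 CPM in controls to 2503 and 2840 after light and 2697 and 2109 with minocycline. Of 5 bipolar cell markers 3 rose, with a median of 0.74. The part of these cells in the rise of the members was not tested either. Lymphocyte markers summed to at most 1.71 CPM in any library.

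**Figure D4:**
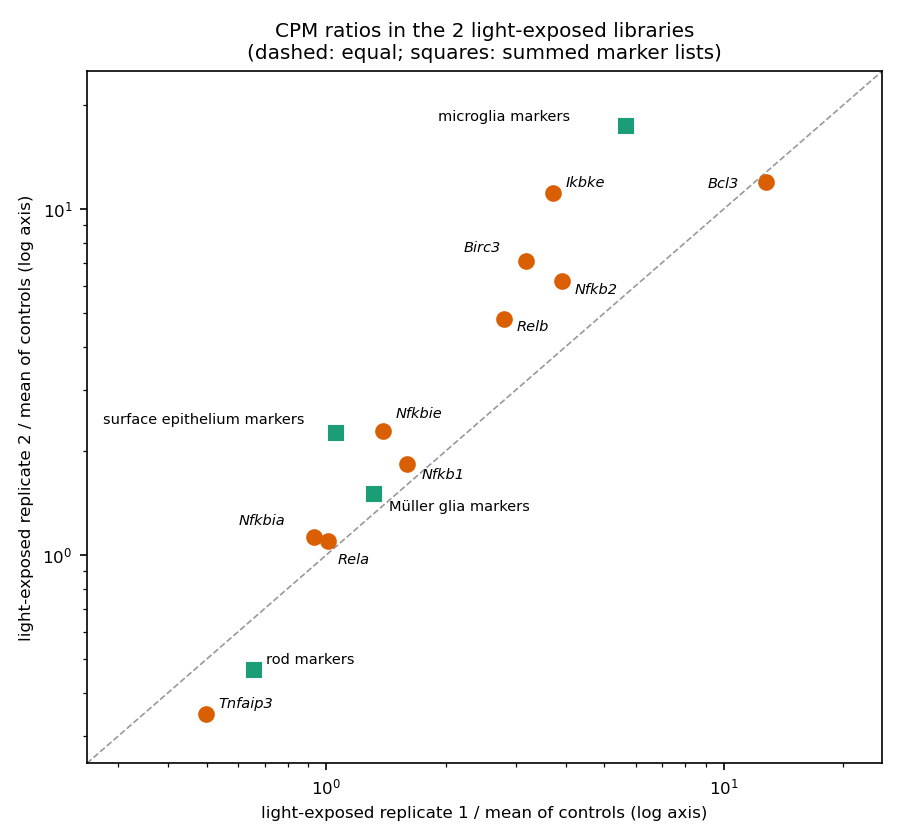
CPM in light replicate 2 against CPM in light replicate 1, both divided by the mean of the controls, on log axes, for the 10 members (circles) and 4 summed marker lists (squares), with a dashed line where the replicates are equal. Bcl3 lies just below the line at 12.8 and 12, whereas Ikbke, Birc3, Relb, Nfkbie and Nfkb2 lie well above it, on the side of the microglia markers at 5.66 and 17.4.

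The comparison of light-exposed retinas with and without minocycline asked whether the drug altered the response. It uses the same light libraries as the comparison above, so the 2 sets of values are not independent. In edgeR no member passed, with 7 of the 10 at an unadjusted p under 0.05, beside 21.1% of all genes, and a smallest adjusted p of 0.0691, for Bcl3. Of all 14750 genes tested, 0.0407% were lower with minocycline and passed. For 8 members both minocycline libraries were below both light libraries, against 28.8% of all genes, and for Tnfaip3 and Nfkbia both were above, against 26.0%. Without the filter on low counts edgeR called Bcl3, Ikbke and Nfkb2 lower, as it did 2.63% of all genes. The median log2 fold change of the members was -1.02, beside 0.0062 for all genes.

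Bcl3 and Ikbke had the lowest estimates. Bcl3 was at 0.744 ± 0.303 CPM with minocycline, a log2 fold change of -2.78 (SE 0.41, edgeR adjusted p = 0.0691), and Ikbke at 0.386 ± 0.0535 CPM, a log2 fold change of -3.0 (SE 0.64, edgeR adjusted p = 0.0775). For Nfkb2 the level was 3.15 ± 0.268 CPM and the log2 fold change -1.43 (SE 0.34, edgeR adjusted p = 0.0874). Relb stood at 2.23 ± 0.140 CPM, with a log2 fold change of -1.22 (SE 0.38, edgeR adjusted p = 0.139). The estimate of Birc3 was -1.39 (SE 0.49), that of Nfkbie -0.81 (SE 0.36), that of Nfkb1 -0.66 (SE 0.16) and that of Rela -0.32 (SE 0.15), all on the log2 scale. Tnfaip3 was at 379 ± 105 CPM, a log2 fold change of 1.02 (SE 0.26, edgeR adjusted p = 0.106). Nfkbia, at 33.2 and 31.3 CPM, had a log2 fold change of 0.21 (SE 0.16).

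Which members passed depended on the fit. With all 6 libraries in 1 edgeR fit, which shares the estimate of spread over the groups, Bcl3 with an adjusted p of 0.0279 and Nfkb2 with an adjusted p of 0.0490 were lower, as were 2.4% of all genes. DESeq2 called Bcl3, Nfkb2 and Ikbke lower, as it did 4.98% of all genes, and Tnfaip3 higher, as it did 3.14%. Without light 1, edgeR called those 3 lower, as it did 4.64% of all genes, and without minocycline A it called Bcl3 lower, as it did 0.309%. The microglia markers, at 84.6 and 49.3 CPM with minocycline, had a median log2 fold change of -3.26 in this comparison, with none of 10 past the threshold. The part of the higher epithelium and pigment cell markers of the minocycline libraries in these values was not tested.

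Minocycline-treated light-exposed retinas were last compared with controls that had neither. Bcl3 and Ikbke were too low for the filter in these libraries, and of the 8 members tested none passed (edgeR, smallest adjusted p = 0.623, and DESeq2), with 1 at an unadjusted p under 0.05, beside 7.01% of all genes. Of all 14181 genes tested, 0.162% rose. That member was Nfkb2, whose libraries at 2.96 and 3.34 CPM lay above the controls at 1.64 and 1.76 CPM, with a log2 fold change of 0.93 and a 95% interval of 0.12 to 1.74. Both minocycline libraries were above both controls for 5 members, Nfkb2, Relb, Nfkbia, Bcl3 and Birc3, against 15.9% of all genes, and below both for none, against 24.0%. The log2 fold change was 0.73 for Relb, with a 95% interval of -0.19 to 1.65, and 0.99 for Birc3, with an interval of -0.12 to 2.10. Bcl3 reached 0.958 and 0.530 CPM, against 0.498 and 0.352 CPM in controls. Tnfaip3, Nfkb1, Nfkbie and Rela had estimates between -0.22 and 0.15 and libraries that overlapped with controls, as did those of Ikbke. A missed threshold with 2 libraries a group does not show that a level was back at that of the controls.

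The rest of the pathway was read from 58 further genes, of which 46 were tested for light against control. Of these, 9 rose, beside 7.52% of all genes, and none fell. An unadjusted p under 0.05 was found for 15 of the 46, beside 28.9% of all genes. DESeq2 also called 9 higher and 0 lower, but the fit of all 6 libraries called 6 higher, 3 receptors and 3 targets, where 5.57% of all genes were higher. In that fit Irak4, Tnfrsf11a, Ccl2 and Gadd45b did not pass, with edgeR adjusted p of 0.0515, 0.0558, 0.0579 and 0.0710, and Vcam1, an adhesion molecule named after its values were seen, did (edgeR adjusted p = 0.0392). The median log2 fold change of the 46 genes was 0.065. Of the 5 receptors tested 4 rose, with a median of 2.30, while of 17 kinases and adaptors 1 rose, with a median of 0.016. None of 8 ubiquitin regulators, of 4 other Rel and IκB genes or of 2 ligands passed in edgeR or DESeq2, with 2, 0 and 0 at an unadjusted p under 0.05. Textbook targets other than the members rose in 4 of 10 tested. The difference between these lists was not tested.

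Tnfrsf1a, the main receptor for tumour necrosis factor, had 3.13 and 3.94 CPM in controls and 13.6 and 22.8 CPM after light, a log2 fold change of 2.37 (SE 0.31, edgeR adjusted p = 0.00627). Tnfrsf1b, the second such receptor, went from 0.355 and 0.704 CPM to 7.71 and 24.5 CPM, a log2 fold change of 4.91 (edgeR adjusted p = 0.0211). Ltbr, the lymphotoxin receptor, rose by 1.62 and Tnfrsf11a, the RANK receptor, by 2.30 on the log2 scale (edgeR adjusted p = 0.0197 and 0.0409), the latter without passing in the fit of all 6 libraries. Cd40, named after its values were seen, was too low to be tested, at 0.284 and 0.211 CPM in controls and 0.117 and 0.665 CPM after light. Among targets, the chemokine Cxcl16 rose by 1.72, the adhesion molecule Icam1 by 2.48, the chemokine Ccl2 by 2.48 and the stress gene Gadd45b by 0.85 on the log2 scale (edgeR adjusted p = 0.0122, 0.0209, 0.0315 and 0.0376). Irak4, a kinase of the interleukin 1 pathway, was the other one to rise, by 1.49 (edgeR adjusted p = 0.0411), and is named to complete the count. Light 2 was the higher light library for all 9 of these genes.

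The ligands had low counts, and 4 of the 6 did not pass the filter for light against control. Tnf had 8 and 1 counts in controls and 7 and 11 after light, Il1b had 13 and 2 against 6 and 8, and Cd40lg had 0 in every library. Lta, the ligand with the highest mean CPM over all libraries, though below Il1a after light, had 17 and 33 counts in controls and 8 and 30 after light. Il1a, the other ligand tested, named after its values were seen, had 13 and 4 counts in controls, 13 and 58 after light, and 8 and 4 with minocycline. Its light libraries overlapped with controls, with a log2 fold change of 1.56 (SE 0.74, edgeR adjusted p = 0.205), and both lay above the minocycline libraries, where the log2 fold change against light was -2.61 (SE 0.73, edgeR adjusted p = 0.117). The highest gene of each further list was taken by mean CPM over all libraries, without regard to length, and of these only Tnfrsf1a of the receptors passed after light. That choice used the light libraries. In controls Il1r1, the interleukin 1 receptor, was higher than Tnfrsf1a, at 6.40 and 6.55 CPM, and it did not pass after light (log2 fold change 0.70, edgeR adjusted p = 0.123). The others were Nfkbiz, an atypical IκB gene, with a log2 fold change of 0.12, Ikbkg, the regulatory subunit of the IκB kinase, with -0.12, Cyld, a deubiquitinase, with 0.02, and the mitochondrial enzyme Sod2 with -0.08. Per kilobase of exon in controls, the levels of Chuk, Rbck1 and Ier3, at 34.3, 37.4 and 26.7 CPM per kb, were above those of Ikbkg, Cyld and Sod2, at 18.4, 11.6 and 14.7 CPM per kb.

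**Figure D5:**
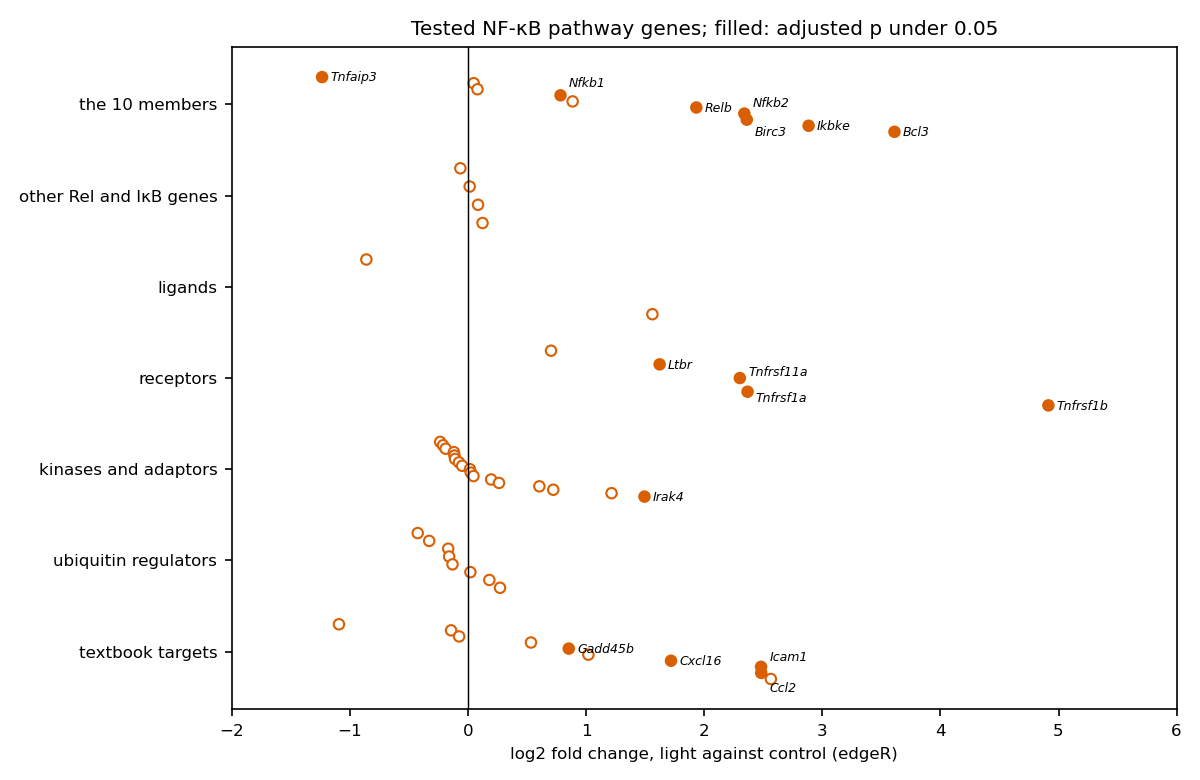
Log2 fold change for light against control (horizontal axis) of the tested NF-κB genes by list, each point a gene, filled where the edgeR adjusted p was under 0.05. Filled points lie among the members, 4 of 5 receptors and 4 of 10 textbook targets, and 16 of 17 kinases and adaptors are open, close to 0 on the median.

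With minocycline against light, none of the 49 further genes tested passed in edgeR. Of these, 15 had an unadjusted p under 0.05, where 21.1% of all genes did, and DESeq2 called 6 lower and 1 higher, where it called 4.98% and 3.14% of all genes. Their median log2 fold change was -0.16. In the fit of all 6 libraries 4 were lower, Tnfrsf1a, Tnfrsf1b, Cxcl10 and Bcl2a1b, the last 2 named after their values were seen, where 2.4% of all genes were. Ptgs2, a textbook target also named after its values were seen, went the other way, with a log2 fold change of 2.15 (SE 0.64, edgeR adjusted p = 0.136). Its light libraries, at 0.818 and 1.85 CPM, lay below both controls and both minocycline libraries. Tnfrsf1a was at 7.62 and 6.89 CPM with minocycline, below both light libraries and above both controls. Against control, none of 45 genes passed in edgeR or DESeq2, with 5 at an unadjusted p under 0.05, beside 7.01% of all genes.

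The genes most like the mean standardized profile of the members were sought outside all lists, among 11085 genes with at least 100 counts on average. The measure was the Pearson correlation of log2 CPM over the 6 libraries. In that mean profile the light libraries were the highest, whereas for Tnfaip3 they were the lowest. Myof, a membrane repair protein, came first with r = 0.999, followed by Itga6, an integrin, with 0.998, Nupr1, a stress gene, with 0.997, and Irak2 and Tspan4, both with 0.996. Myof had 12.5 and 17.0 CPM in controls, 39.0 and 69.0 after light, and 20.4 and 21.5 with minocycline. The 6 points share libraries and the light replicates, and 5 genes picked out of so many are a description only.

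In the GENCODE annotation of GRCm38, Nfkb2 spans chr19:46304320-46312385 and Rela chr19:5637483-5648130. Bcl3 at chr7:19808462-19822770 and Relb at chr7:19606217-19629438 lie on the same chromosome. Nfkb1 is at chr3:135584655-135691547, Nfkbia at chr12:55489410-55492647 and Nfkbie at chr17:45555703-45563169. Tnfaip3 is at chr10:19000910-19015657, Birc3 at chr9:7848699-7873186 and Ikbke at chr1:131254343-131279606. Some rows may hold reads of a neighbour. Nfkb2 overlaps by 316 bases with Psd, which had 6932 to 10539 counts a library and a log2 fold change of -0.56 after light (edgeR adjusted p = 0.0655), and Nfkb1, Nfkb2, Ikbke and Bcl3 overlap long noncoding RNAs that have no row in the table. The kit marks the strand, but whether counting used it is not given in the sources used here. Rela, Relb, Nfkbia, Nfkbie, Tnfaip3 and Birc3 overlap no other gene of the RefSeq annotation used.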

How the data were processed

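RNA of whole retinas was sequenced in 6 libraries, 2 per group. The authors prepared stranded mRNA libraries, aligned the reads to mm10 with STAR and deposited counts per gene. The counts are whole numbers without scaling, although the data statement calls them normalized DESeq2 counts. The annotation, tool versions and use of strand in counting are not given in the sources used here.

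Pairs of groups were compared on all genes with the robust quasi-likelihood F test of edgeR 4.0.16 (R 4.3.3), after filterByExpr and TMM scaling, and a gene passed at a Benjamini-Hochberg adjusted p under 0.05. CPM used TMM sizes over all 6 libraries, and levels per kilobase used GENCODE M21 exon unions. Intervals are 95% intervals of the fit. SE is the log2 fold change divided by the root of F. Simulated data were used to test the code of the fits. The changed genes there had more counts than Bcl3, Ikbke and Birc3 in controls, and larger changes than most members. Counts of replicates differed by about 30 times sampling noise (chi-square per degree of freedom 29 to 30.6), so no library was a copy of another. Promoters and overlaps came from RefSeq, GRCm38.p6.

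The members, gene lists and tests were chosen with earlier results of these data known. Named were all members, the highest gene of each list, the 5 genes most like the mean profile of the members, and cell type markers. Also named were other pathway genes that passed, up to 8 of smallest p per comparison. The alternatives were DESeq2 1.42.0, DESeq2 size factors, total library size, a fit of all 6 libraries, no filter, a minimum of 10 counts per library, no robust estimation, the fold cutoff, the replicate block and each library left out in turn. Monocyte and neutrophil markers summed to 0.352 to 2.14 CPM, cone markers to 1360 to 1789, bipolar cell markers to 928 to 1738 and endothelium markers to 131 to 283 CPM.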

Additional observations from a re-analysis of the deposited data

How the results depend on the processing

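For the 7 members called after light, 62 of the recomputed fold changes passed in the same direction and 19 no longer passed. Among the values that had not passed, in any comparison, 209 stayed so, 14 newly passed and 9 changed sign. For light against control, with 6 members higher and 1 lower, a minimum of 10 counts in every library left 7 members tested and 3 higher, since Bcl3, Birc3 and Ikbke were not tested. The fold cutoff left 0 lower. Leaving out 1 library gave 0 to 7 higher and 0 to 1 lower. With DESeq2 size factors Ikbke did not pass (edgeR adjusted p = 0.0509, and 1.5e-05 to 0.214 over its alternatives). For minocycline against light, with 0 higher and 0 lower, DESeq2 gave 1 higher and 3 lower, no filter 3 lower (2.63% of all genes), all 6 libraries in 1 fit 2 lower, and leaving out 1 library 0 to 3 lower. The cause was not tested. For minocycline against control the counts stayed at 0 under every alternative run.

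Sign changes all came from leaving out 1 library, in members that did not pass. For light against control, leaving out 1 library gave -0.15 (without control 1) to 0.34 for Rela and -0.11 (without control 2) to 0.21 for Nfkbia, with -0.099 without light 2. For minocycline against control it gave -0.066 (without control 1) to 0.40 for Nfkb1, -0.45 to 0.049 (without control 2) for Rela, -0.23 (without control 1) to 0.52 for Nfkbie and -0.55 to 0.073 (without control 1) for Tnfaip3. Without minocycline A, Nfkbie was at -0.15 and Tnfaip3 at 0.054.

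With the replicate number as a block, light against control again gave 6 members higher and 1 lower, and 1668 genes higher and 857 lower in all, against 1079 and 545. Same-numbered libraries did not deviate together (r = -0.011), but that value cannot show whether equal numbers share an animal, litter or day. No paired analysis was possible because of missing replicate numbers where minocycline was compared. Total library size moved the median over all genes, on the log2 scale, by 0.24 for light against control and by -0.17 for minocycline against light, and gave 1930 genes higher and 133 lower after light. The members gave 6 higher and 1 lower there too. For all genes with minocycline against light, DESeq2 called 463 higher and 734 lower, and edgeR 2 and 6. Where 1 library of a group remained, it was assumed to vary like the others. At depths of 15205930 to 22856922 counts, Ikbke, Bcl3 and Birc3, with 2 to 10 counts in controls, are the least precise members.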
